A study of Mus musculus with 3 samples.

Results

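The nuclear genes of the mitochondrial respiratory chain and of ATP synthase were read on mouse arrays, 1 array for each of 3 conditions. A gene was taken as a member when its symbol began with Nduf, Uqcr, Atp5 or Cox4 to Cox8, or was Sdha, Sdhb, Sdhc or Sdhd. Only probe sets annotated with a single gene symbol were used. These rules gave 90 genes, read by 179 probe sets, out of 18193 genes on 45101 probe sets. By complex, 34 genes belonged to complex I, 4 to complex II, 8 to complex III, 18 to complex IV and 17 to complex V. The remaining 9 were 8 assembly factors named Ndufaf and Cox7a2l, whose products are not subunits of a single complex.

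The respiratory chain sits in the inner membrane of the mitochondrion. Complex I takes electrons from NADH and complex II takes them from succinate, complex III passes them to cytochrome c, and complex IV hands them to oxygen. Protons pumped along the way drive complex V, the ATP synthase. Most subunits are encoded in the nucleus, and a small set of core subunits is encoded in mitochondrial DNA. Several complex IV subunits exist as paired isoforms, of which one is found widely and the other mainly in muscle, lung or testis.

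PDL-L2 is an immortalised mouse periodontal ligament fibroblast line, and total RNA of the cultures was hybridised. Cells received a control siRNA (siCont) or an siRNA against endoglin (siENG), each a commercial pool of sequences. Endoglin is a co-receptor for ligands of the TGF-beta family. After 48 h, siCont cells were given vehicle or recombinant human BMP-2 (rhBMP-2, 250 ng/ml), and siENG cells were given rhBMP-2 at the same dose, all for 12 h. The labels place the rhBMP-2 cultures in a differentiation medium with ascorbic acid and beta-glycerophosphate. Whether the medium has a part in the ratios against vehicle was not tested. The combination of siENG with vehicle was not analysed here. Each condition rests on 1 array of 1 culture, so no ratio has a replicate check and no p-value is given. The number of arrays limits the precision. In bulk RNA, fewer cells that carry a transcript and less of it per cell cannot be told apart.

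Signals below are listed in the order siCont vehicle, siCont BMP-2, siENG BMP-2. The brighter of the endoglin probe sets gave 286, 298.5 and 108 and the dimmer one gave 121, 120.5 and 45.3, lowest on the siENG array on both. The 2% trimmed mean of the signals was 141, 143 and 166, so the siENG array was brighter as a whole. The 3'/5' signal ratio of the Gapdh control, a measure of RNA integrity, was 0.758, 0.774 and 0.804. Of 10 fibroblast and ligament markers, 9 were measured. Col1a2 (9569, 9773 and 10255) and Postn (4428, 5491 and 4614) were bright, whereas Thy1 (6.6, 12.6 and 1.1) and Dcn (8.5, 18 and 1.7) lay in or near the range of the bacterial control probe sets. The highest signal of those controls, whose target is absent from mouse cells, was 13.1. The 10 muscle markers summed to 136, 154 and 142, the 5 measured brown adipocyte markers to 291, 420.4 and 274 (mostly Fabp4), and the 6 testis germ cell markers to 26.2, 40.3 and 41.7. The brown adipocyte marker Ucp1 was at 3.3, 4.1 and 1.5, within the control range. The 5 measured leukocyte markers summed to 132, 117 and 211, with the defining marker Ptprc at 4.2, 0.9 and 8.1. The endothelial markers summed to 22.0, 41.6 and 42.5 and the epithelial markers to 101, 84.6 and 54.1. The part of these values in the results was not tested.

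Promoter sequences are shown for 4 members chosen by their ratio or their signal, and a part of these sequences in the ratios was not tested. Ndufa4 had the lowest ratio with siENG among bright members with a sequence in the RefSeq promoter table, Ndufv3 and Atp5g2 had the highest ratios among them, and Cox6a1 was the brightest member. Each window runs from 250 bases before to 50 bases after the annotated start of the gene in GRCm38.p6, is 300 bases long and is written 5' to 3' on the strand of the gene. Capitals mark matches, on either strand, to the motifs CGCATGCG of NRF-1, CCGGAAG of the ETS and GABP family, ACGTG of the hypoxia-inducible factors, CCAAT and TATAAA.

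Ndufa4, chr6:11907401-11907700, minus strand: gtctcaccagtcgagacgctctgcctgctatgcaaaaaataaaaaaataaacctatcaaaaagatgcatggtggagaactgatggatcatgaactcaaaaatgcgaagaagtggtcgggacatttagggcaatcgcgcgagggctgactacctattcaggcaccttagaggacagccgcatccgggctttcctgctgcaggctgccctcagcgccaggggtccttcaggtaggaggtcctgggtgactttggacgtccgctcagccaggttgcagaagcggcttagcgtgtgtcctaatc

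Cox6a1, chr5:115348909-115349208, minus strand: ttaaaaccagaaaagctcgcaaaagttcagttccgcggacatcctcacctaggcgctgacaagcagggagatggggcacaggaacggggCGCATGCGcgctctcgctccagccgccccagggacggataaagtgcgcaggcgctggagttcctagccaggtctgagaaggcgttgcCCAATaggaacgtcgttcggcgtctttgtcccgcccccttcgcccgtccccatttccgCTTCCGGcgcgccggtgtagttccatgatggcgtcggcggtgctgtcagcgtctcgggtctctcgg

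Ndufv3, chr17:31519865-31520164, plus strand: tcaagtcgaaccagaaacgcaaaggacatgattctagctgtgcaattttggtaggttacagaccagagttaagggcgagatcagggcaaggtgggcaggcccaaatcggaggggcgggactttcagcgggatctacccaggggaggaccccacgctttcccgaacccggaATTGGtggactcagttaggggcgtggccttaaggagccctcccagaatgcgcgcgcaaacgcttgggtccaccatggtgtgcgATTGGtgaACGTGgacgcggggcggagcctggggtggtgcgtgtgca

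Atp5g2, chr15:102670998-102671297, minus strand: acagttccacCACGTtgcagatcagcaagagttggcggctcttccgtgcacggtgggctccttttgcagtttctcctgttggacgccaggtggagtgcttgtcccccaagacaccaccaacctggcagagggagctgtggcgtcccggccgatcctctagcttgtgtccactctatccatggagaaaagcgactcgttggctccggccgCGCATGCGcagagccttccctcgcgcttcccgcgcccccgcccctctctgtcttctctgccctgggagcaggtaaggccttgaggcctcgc

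The Ndufa4 window held no match to these motifs. The Cox6a1 window held 3 matches, 1 each to NRF-1, CCAAT and the ETS motif. The Ndufv3 window held 2 CCAAT matches, both on the opposite strand, and 1 match to ACGTG, and the Atp5g2 window held 1 match each to NRF-1 and ACGTG. Over all members, 74 of 90 had a promoter in the table. The NRF-1 motif was found in 10 of these 74 (13.5%), namely Atp5g2, Atp5j, Atp5k, Atp5l, Cox6a1, Ndufa8, Ndufaf4, Ndufaf5, Uqcr11 and Uqcrc1, compared with 2.07% of 27025 genes in the table. Among 1318 other genes on these arrays with a signal of 1000 or more, the share was 5.92%. NRF-1 is a known activator of nuclear genes for respiration. The ETS motif was found in 19 members (25.7%), against 9.93% of all genes and 21.9% of the other bright genes. ACGTG was found in 19 members (25.7%, against 21.8% and 34.3%), CCAAT in 32 (43.2%, against 41.1% and 44.5%) and TATAAA in 8 (10.8%, against 15.7% and 10.3%). The NRF-1 letters read the same on both strands. These matches describe letters in a window and were not tested as sites.

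The members were among the brightest probe sets on the arrays. Of 90 genes, 68 (75.6%) lay in the brightest 10% of all genes by mean log2 signal. On all 3 arrays, 77 members had a signal of 152 or more, which is the 75th percentile of all probe sets. Signals of different probe sets depend on the probes, so they are not compared as amounts of RNA. The median signal over the 34 complex I genes was 1345, 1299 and 1762. It was 1112, 1167 and 1438.5 over the 4 complex II genes and 1786, 1899 and 2381 over the 8 complex III genes. In each of these complexes the siENG array, which was brighter as a whole, held the highest median. The 18 complex IV genes, which include the dim isoforms, had medians of 1003, 985 and 1169. The 17 complex V genes had medians of 3310, 3275 and 3986, and the assembly group of 9 had 248, 231 and 353. Complexes II, III and V had no member below 152 on any array, whereas complex IV had 9 of 18.

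**Figure D1:**
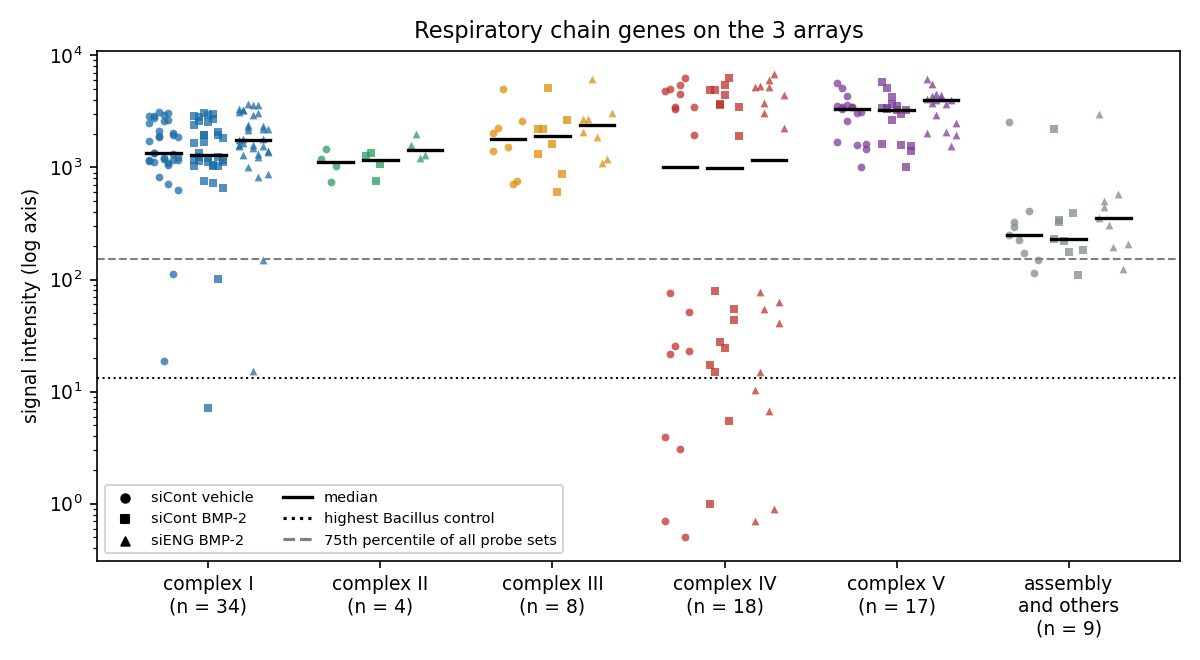
Signal of each of the 90 members on a log axis, grouped by complex, with 1 point per gene and array and the 3 arrays in separate columns. Complexes II, III and V have no gene below 152, complex I has 32 of 34 genes at 152 or more, and complex IV splits into 9 genes at 1890.9 or more and 9 genes below 152.

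The brightest member of complex I was Ndufa12, an accessory subunit, at 3111, 3067 and 3643. In complex II it was Sdhb, the iron-sulphur subunit of succinate dehydrogenase, at 1457, 1343 and 1995. In complex III it was Uqcrb, the ubiquinone-binding accessory subunit, at 5005, 5135 and 6139. Cox6a1 was the brightest of complex IV and of all members, at 6263, 6271 and 6822. Atp5g3, which encodes subunit c of the proton-driven ring, was the brightest of complex V at 5688, 5733 and 6095. All 5 genes were highest on the siENG array as deposited. At the dim end of complex I, Ndufb4 gave 18.9, 7.1 and 15.3 on its only probe set with a single symbol. A further pair of probe sets that name Ndufb4 beside the copies Ndufb4b and Ndufb4c gave 1879, 1846 and 1919, and 1637, 1571 and 1827. The dim reading of Ndufb4 is therefore that of a single probe set. In all, 10 probe sets named a member beside another gene and were not used to name it.

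The isoform families of complex IV separated into bright and dim probe sets. For subunit 4, Cox4i1, the widespread form, gave 4829, 4869 and 5203. Cox4i2, the form best known from lung, gave 21.8, 15.0 and 15.1. For subunit 6a, the widespread Cox6a1 was at the signals given above. Cox6a2, the heart and muscle form, gave 23.1, 43.5 and 41.3. For subunit 6b, Cox6b1 gave 3441, 3434 and 4423 and the testis form Cox6b2 gave 0.7, 17.2 and 10.3. For subunit 7a, the widespread Cox7a2 gave 5401, 5448 and 6043, and the heart and muscle form Cox7a1 gave 25.3, 28.0 and 54.6. Cox7a2l, a related protein that takes part in joining complexes into supercomplexes, gave 2566, 2198.5 and 2982. For subunit 8, Cox8a gave 1930.4, 1891 and 2260, the muscle form Cox8b gave 3.9, 1.0 and 0.7, and Cox8c, known from testis, gave 75.9, 78.6 and 78.1. The testis form Cox7b2 gave 0.5, 5.5 and 0.9. Cox7b2 and Cox8b were within the bacterial control range on all arrays. No tissue-restricted form reached 152 on any array. Cox7c, a widespread subunit, also read dim at 51.3, 54.2 and 63.1, so a dim probe set is not by itself the mark of a restricted form.

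**Figure D2:**
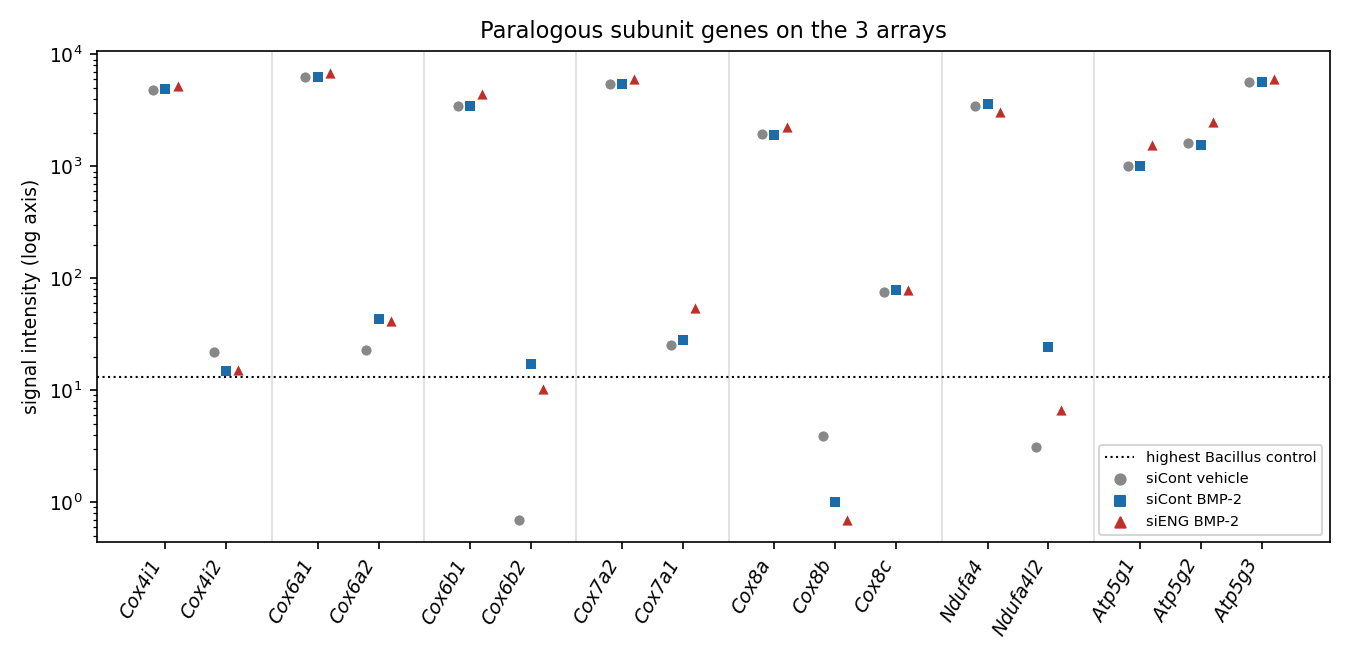
Signal (log axis) of the isoform families, without Cox7a2l and Cox7b2, on the 3 arrays, with 1 point per array and the highest bacterial control signal of 13.1 as a line. The widespread forms of complex IV lie at 1890.9 or more, the tissue-restricted forms lie below 152, and the 3 Atp5g genes are all bright.

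The first comparison set the rhBMP-2 culture against the vehicle culture in siCont cells. On the probe set read for each gene, the siCont BMP-2 and siCont vehicle signals were nearly equal for most members. Each log2 ratio was taken relative to the median log2 ratio of all probe sets past a signal limit of 23.0, the median of all probe sets, in either of the arrays compared. That median was 0.01 here, 0.21 for siENG against siCont with rhBMP-2 in both, and 0.22 for siENG with rhBMP-2 against siCont with vehicle. Of 90 members, 85 passed the limit. A relative log2 ratio of 0.32 or more was found in 2 of the 85 members, against 11.2% of 10810 genes past the limit. One of -0.32 or less, which is a ratio of 0.8, was found in 0 members, against 12% of those genes. A ratio of 2 or more was found in 1 member (1.78% of genes) and 0.5 or less in 0 (1.59%). The 2 members past 0.32 were the dim isoforms Cox6a2 (23.1 and 43.5, relative log2 ratio 0.91) and Ndufa4l2 (3.1 and 24.6). The vehicle signal of Ndufa4l2 lies in the bacterial control range, and counted against 13.1 its signal was 1.88-fold higher with rhBMP-2. It passed the limit only through the siCont BMP-2 array, where it was high. Probe sets of like signal had a robust SD of 1.15 in log2 ratio, so this value is not a firm bound.

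Bright genes vary less between arrays, so the members were also set against genes of like signal. With a signal limit of 152, 0 of 78 members reached 0.32 and 0 were at -0.32 or less, against 6.62% and 5.61% of 6722 genes. With a limit of 1000, the counts were 0 and 0 of 65 members, against 5.56% and 3.11% of 1384 genes. These counts read each gene by 1 probe set. Some other probe sets of members past the limit of 152 did reach 0.32 or -0.32. Such probe sets of Ndufs7 gave 1541.6 and 1206.8 (-0.36), of Sdhc 332 and 436 (0.39) and of Ndufaf4 126 and 169.5 (0.42). The probe sets read for these genes gave -0.001, 0.01 and -0.06. Over the 77 members at 152 or more on all arrays, the relative log2 ratio ran from -0.26 to 0.21, with a median of -0.02 and an SD of 0.08 across genes. In the brightest of 20 bins of all probe sets by signal, the log2 ratios had a robust SD of 0.11. Over the same 77 members the median was -0.03 for complex I, 0.03 for complex II, 0.02 for complex III, -0.01 for complex IV and -0.03 for complex V. Complex V was the narrowest group, from -0.12 (Atp5d, a subunit of the rotor stalk) to 0.05 (Atp5l, a subunit of the membrane part), with an SD of 0.04.

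The bright members farthest from 0 were in complex III and among the associated genes. Uqcrc2, a core subunit of complex III, gave 715 with vehicle and 599 with rhBMP-2, a relative log2 ratio of -0.26. Its second probe set gave 437 and 442.5, a relative log2 ratio of 0.01, so the lower value was not shared by both. Uqcrfs1, the Rieske iron-sulphur protein of complex III, gave 757 and 878 (0.21). Cox7a2l gave 2566 and 2198.5 (-0.23). In complex I, Ndufv3, a small subunit of the NADH-binding module, gave 1160 and 1019.9 (-0.19), and the accessory subunits Ndufa6 and Ndufb10 gave -0.18 each. Among the assembly factors, Ndufaf6 gave 149.6 and 184 (0.29) and Ndufaf8 gave 293.5 and 326 (0.14). None of these reached 0.32 or -0.32.

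**Figure D3:**
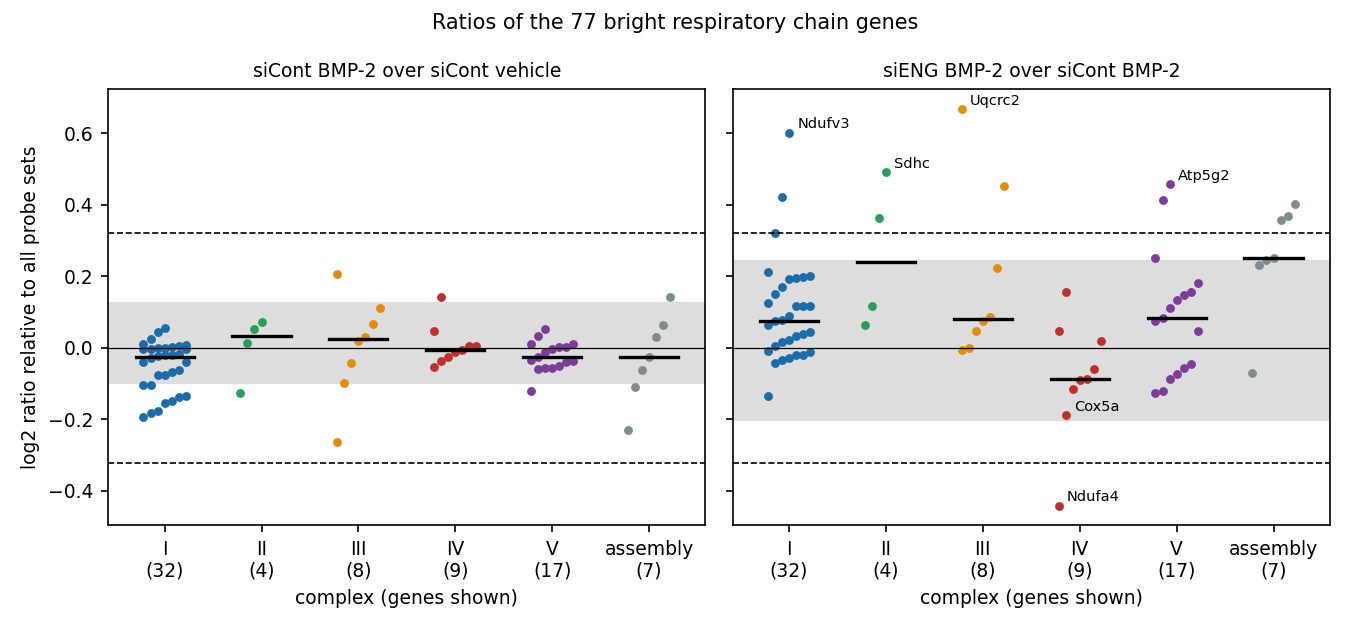
Relative log2 ratio of the 77 members at 152 or more on all arrays, by complex, for rhBMP-2 against vehicle in siCont cells (left) and siENG against siCont with rhBMP-2 (right). Bars are medians, broken lines mark 0.32 and -0.32, and the grey band is 1 robust SD around the median in the brightest of 20 signal bins. With rhBMP-2 the bright members lie between -0.26 and 0.21, and with siENG they lie between -0.44 (Ndufa4) and 0.67 (Uqcrc2).

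The second comparison asked what the endoglin siRNA changed in rhBMP-2 treated cells. As deposited, 76 of the 77 bright members had their highest signal on the siENG array, and Ndufa4 alone had its lowest there. Over all genes at 152 or more on all arrays, 73.4% of 6238 were highest and 13.1% lowest on that array. The siENG array was also brighter as a whole, as described above, and the part of this in the members' signals was not tested. Relative to the median of all probe sets, a log2 ratio of 0.32 or more was found in 13 of 85 members, against 20.7% of 10854 genes, and as deposited in 36, against 40.4% of those genes. One of -0.32 or less was found in 2 members, against 17.7%, a ratio of 2 or more in 0 (2.32%) and 0.5 or less in 1 (2.7%). With a limit of 152, 11 of 78 members were at 0.32 or more, against 18% of 7126 genes, and 1 was at -0.32 or less, against 13.1%. With a limit of 1000, 8 of 69 members were at 0.32 or more, against 14.2% of 1647 genes, and 1 was at -0.32 or less, against 11.2%. Relative to the median of all probe sets, the counts lay below the shares of all genes in both directions, the more so for lower ratios. At the limit of 1000 the share of members at 0.32 or more, 11.6%, was near that of all genes. As deposited, the count at 0.32 or more was not below the share of all genes.

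The medians of the complexes are given beside the spread of single probe sets. In the brightest of 20 signal bins, the log2 ratios of this comparison had a robust SD of 0.22. Relative to the median of all probe sets, the median log2 ratio was 0.08 for complex I, 0.24 for complex II, 0.08 for complex III and 0.08 for complex V. It was -0.09 for complex IV, which as deposited was 0.12. The assembly group was at 0.25. The median over all genes past the limit was 0.03. The value of complex II rests on Sdhc, whose probe sets were opposed, and with its second probe set the median was 0.09. Genes of 1 complex are not replicates of the condition.

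In complex IV, Ndufa4, first described as a complex I subunit and now placed in complex IV, gave 3450.4, 3585.5 and 3055. It was lowest on the siENG array, with a relative log2 ratio of -0.44, which was 2.07 robust SD below probe sets of like signal. As deposited the log2 ratio was -0.23, and Ndufa4 was read by 1 probe set. Its relative Ndufa4l2, known as an oxygen-regulated gene, gave 3.1, 24.6 and 6.7. The siENG signal of Ndufa4l2 was in the bacterial control range, so it was at least 1.88-fold lower with siENG, counted against 13.1. Of the 9 bright complex IV genes, 3 had relative log2 ratios above 0, against 55.8% of all genes past the limit of 152, and 6 were below 0. These were Ndufa4, Cox5a (3305, 3663 and 3719, -0.19), Cox4i1 (-0.11), Cox6a1 (-0.09), Cox6c (-0.09) and Cox7a2 (-0.06). A second bright probe set of Cox6a1 gave 2684, 2553 and 3202.5 (0.12), so its sign was not shared. All of these except Ndufa4 were higher on the siENG array as deposited. Cox6b1 stood on the other side at 0.16. Among the dim isoforms, Cox7a1 was highest with siENG (28.0 with siCont and 54.6 with siENG, 0.75), and Cox6a2 gave -0.28 and Cox8c -0.22.

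In complex III, Uqcrc2 had the highest relative log2 ratio of the bright members. Its signals were 715, 599 and 1100.3, highest on the siENG array and lowest on the siCont BMP-2 array, with a relative log2 ratio of 0.67. The second probe set gave 437, 442.5 and 939.7, a ratio of 0.88, so both were higher with siENG. Uqcr10, a small subunit of complex III, gave 1401, 1315 and 2082 (0.45), and its other probe sets gave 0.58 and 0.40. Uqcrc1, the partner of Uqcrc2 in the core, gave 1535, 1615 and 1861 (-0.01). The core genes of complex III thus stood at different ratios on these arrays.

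In complex II, 4 of 4 genes had relative log2 ratios above 0, or 3 of 4 with the second probe set of Sdhc, where 53.7% of all genes past the limit were above 0. Sdhc, which anchors the enzyme in the membrane, gave 739.7, 750.0 and 1218 (0.49). Its second probe set gave 332, 436 and 399, a ratio of -0.34, so the probe sets of Sdhc were opposed and its direction is uncertain. Sdhb gave 1457, 1343 and 1995 (0.36). Sdha, the flavoprotein that oxidises succinate, gave 1196, 1263 and 1582 (0.12), and the other membrane anchor Sdhd gave 1027, 1071 and 1295 (0.06). A second probe set of Sdha gave 478, 415 and 651.5 (0.44).

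In complex I, 25 of 33 genes past the limit had relative log2 ratios above 0, against 53.7% of all genes, and 3 reached 0.32, against 20.7%. With rhBMP-2 against vehicle, 7 of 33 were above 0, against 50.1% of all genes, and that ratio shares the siCont BMP-2 array. For siENG BMP-2 against siCont vehicle, 21 of 33 were above 0, against 53.9%. Ndufv3 gave 1159.9, 1019.9 and 1789 (0.60). Ndufa6 gave 1159.8, 1028.5 and 1593 (0.42), and the dim Ndufb1 gave 112, 101 and 149.9 (0.36). These 3 were each read by 1 probe set, and each was lowest on the siCont BMP-2 array and highest on the siENG array. Subunits that carry redox centres are given for their role. Ndufs1, the largest iron-sulphur subunit, gave 718, 721 and 822 (-0.02). Ndufv1, which binds NADH and flavin, gave 1216, 1205 and 1593.5 (0.19), and its partner Ndufv2 gave 3049.8, 3024 and 3581 (0.03), with other probe sets at -0.19 and -0.01. The iron-sulphur subunits Ndufs7 and Ndufs8 stood at 0.07 and 0.02. Ndufb8, an accessory subunit of the membrane arm, was the lowest of complex I at 1728, 1659 and 1746.5 (-0.14).

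In complex V, the genes for subunit c did not stand together. These genes encode the same mature protein with different import sequences. Atp5g1 gave 1016, 1012.5 and 1559 (0.41) and Atp5g2 gave 1612, 1556 and 2472 (0.46). Both were near equal on the siCont arrays and higher with siENG, whereas Atp5g3 gave 5688, 5733 and 6095 (-0.12). Atp5g1 and Atp5g2 also have dim probe sets, and a mean over all probe sets turned their direction, to -0.64 and -0.57. The catalytic core genes were near 0, with Atp5a1 at 3514, 3413 and 4075 (0.05) and Atp5b at 5140.4, 5077 and 5533 (-0.09). Atp5c1, the central shaft, had the lowest ratio of complex V at 4312, 4223 and 4475 (-0.13).

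Among the assembly factors of complex I, 3 of 8 reached 0.32, against 20.7% of all genes. Ndufaf7 gave 248, 231 and 353 (0.40), Ndufaf4 gave 407, 392 and 585 (0.37) and Ndufaf1 gave 325, 341 and 505 (0.36). On these probe sets all were highest on the siENG array. A second, dimmer probe set of Ndufaf4 gave 126, 169.5 and 122 (-0.69), lowest on the siENG array, so the direction of Ndufaf4 is uncertain. Ndufaf3 gave 173, 177.5 and 195 (-0.07), Ndufaf5, the dimmest of the group, gave 115, 109 and 125 (-0.01), and Ndufaf6 gave 149.6, 184 and 206 (-0.05). Cox7a2l gave 2566, 2198.5 and 2982 (0.23), highest with siENG and lowest on the siCont BMP-2 array.

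**Figure D4:**
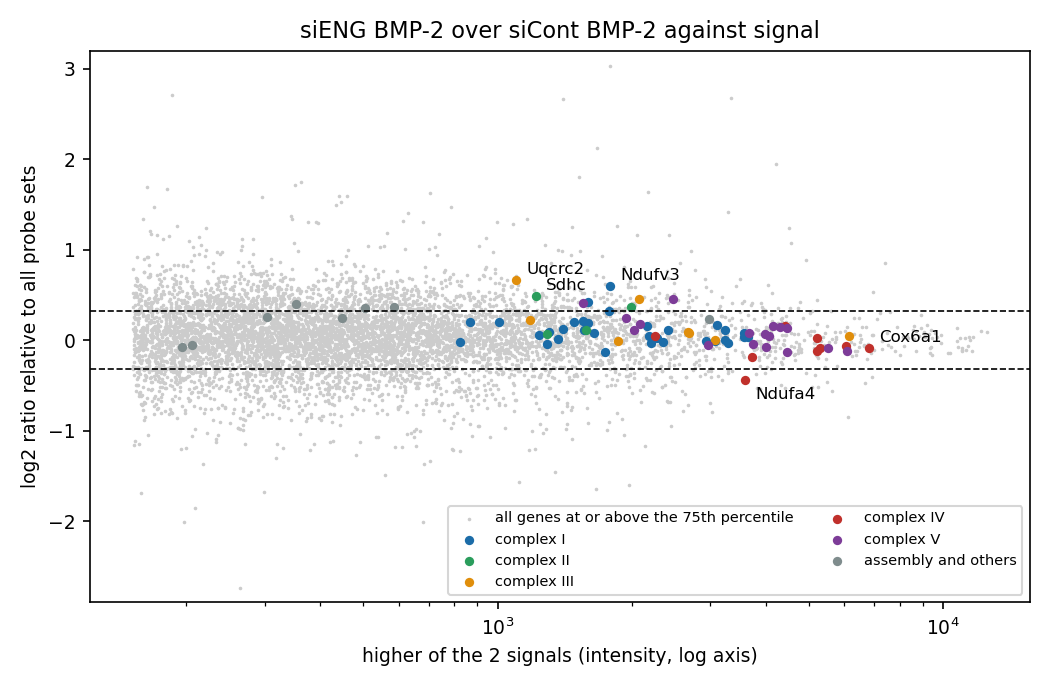
Relative log2 ratio of siENG against siCont (rhBMP-2 in both) plotted against the higher of the 2 signals (log axis) for all genes at 152 or more, with the members coloured by complex and broken lines at 0.32 and -0.32. Most members lie at signals of 1000 or more between the lines, and Ndufa4 lies below them. The plot runs from -2.9 to 3.2 and leaves out 2 genes beyond it.

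Probe sets of the same gene were a further check within the arrays. For 37 members with several probe sets at 152 or more, the median range of the log2 ratio between them was 0.07 for rhBMP-2 and 0.09 for siENG. The widest range was 0.37 and 0.83 in the 2 comparisons, both times in Sdhc.

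siENG BMP-2 was also set against siCont vehicle. This ratio shares its arrays with the comparisons above and is given side by side with them, not as independent support. A relative log2 ratio of 0.32 or more was found in 11 of 84 members, against 20.4% of 10847 genes, and -0.32 or less in 1, against 18.1%. A ratio of 2 or more and one of 0.5 or less were found in 0 members each (2.25% and 2.85% of genes). The member at -0.32 or less was Ndufa4, with a relative log2 ratio of -0.40. The median log2 ratio was 0.02 for complex I, 0.21 for complex II, 0.13 for complex III, -0.05 for complex IV (0.17 as deposited) and 0.04 for complex V. Uqcrc2 stood at 0.40 against vehicle and Ndufv3 at 0.40, compared with 0.67 and 0.60 against siCont BMP-2. Atp5g1 and Atp5g2 stood at 0.40 each, close to the ratios against siCont BMP-2. Uqcrfs1, at 757, 878 and 1184, stood at 0.42 against vehicle and 0.22 against siCont BMP-2.

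The genes that work beside the complexes were described by lists. In each, members and lists were read on the same scale, siENG against siCont unless stated, where 20.7% of all genes reached 0.32 and 17.7% were at -0.32 or less. Of 7 genes for electron entry and cytochrome c, 1 was at 0.32 or more and 1 at -0.32 or less. The latter was Cycs, cytochrome c, at 2271, 2470.4 and 2089 (relative log2 ratio -0.45), and the former was Etfb, of the electron-transfer flavoprotein, at 0.33. Cycs was thus lowest on the siENG array, like Ndufa4. Of 13 subunits encoded in mitochondrial DNA, 1 was read, the ND5 gene of complex I, at 5604, 5995 and 6665 (-0.06). It was found by its gene identifier. The others were sought only by symbol, so the count does not show that they lack probe sets.

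Among 35 assembly factors with other names that passed the limit, 10 were at 0.32 or more and 1 at -0.32 or less, with a median of 0.15. Atpaf1, which helps to assemble the catalytic head of complex V, gave 159, 127 and 283 (0.95). Sco1, a copper chaperone of complex IV, gave 33.2, 63.2 and 38.4, with 0.92 for rhBMP-2 and -0.93 for siENG. Of 15 genes of mitochondrial transcription and its regulators, 4 were at 0.32 or more and 1 at -0.32 or less, with a median of 0.00. Nrf1 itself gave 121, 89.5 and 158 (-0.44 with rhBMP-2 and 0.61 with siENG). Ppargc1b, a coactivator of mitochondrial genes, gave 46.1, 22.8 and 56.2 (-1.02 and 1.09). Both regulators were lowest on the siCont BMP-2 array, which their 2 ratios share, and Ppargc1b there lay just below the signal limit of 23.0. They were the 2 of the 15 genes at -0.32 or less with rhBMP-2, against 12% of all genes. The median of the 15 with rhBMP-2 was 0.18, and 1 was at 0.32 or more, against 11.2%. Gabpa, the DNA-binding part of GABP, gave 585, 581 and 503, with -0.42 for siENG.

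The 16 measured citrate cycle and pyruvate dehydrogenase genes had a median of -0.14, with 2 at 0.32 or more and 0 at -0.32 or less. Suclg2, of succinyl-CoA ligase, stood at 0.46. Of 6 carrier and channel genes past the limit, 1 was at 0.32 or more, which was the outer membrane channel Vdac2 at 1669.6, 1733 and 2783 (0.47). The 76 genes of the mitochondrial ribosome had a median of 0.11, with 17 at 0.32 or more and 1 at -0.32 or less. Mrpl4 gave 349.8, 289 and 540.4 (0.70) and Mrpl11 gave 447, 387 and 715 (0.68). The share of ribosomal genes at 0.32 or more was thus near that of all genes.

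A list of oxygen-regulated genes, several of which act on mitochondria, had the highest median of the lists. The lists were chosen with earlier results of these data known, so this rank and the counts that follow are description and not independent support. Of 11 such genes past the limit, 9 were at 0.32 or more with siENG, and the median relative log2 ratio was 1.26. Of these, 6 were at a ratio of 2 or more, against 2.32% of all genes. With rhBMP-2 alone, the median over the 9 genes past the limit was 0.03. These medians cover different sets of genes, because Ankrd37, for one, passed the limit only through the siENG array, where it was high. Ankrd37, an ankyrin repeat gene known to respond to low oxygen, gave 14.1, 4.3 and 311. Its siCont BMP-2 signal lies in the bacterial control range, so it was at least 23.7-fold higher with siENG, counted against 13.1. Pdk1, a kinase that shuts off pyruvate dehydrogenase, gave 49.2, 34.8 and 656 (4.03). Higd1a, a protein that binds to complex IV, gave 1039, 1069.9 and 3293 (1.41), and the mitophagy receptor Bnip3 gave 595, 450.3 and 3341.5. These genes were far higher on the siENG array than on both siCont arrays. Among the respiratory chain members past the limit, 0 reached a relative ratio of 2 with siENG against either siCont array. The shares of all genes were also small, 2.32% against siCont BMP-2 and 2.25% against vehicle, so 0 members is near them. As deposited 1 member did, the dim Cox7a1 against vehicle (25.3 and 54.6).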

How the data were processed

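Total RNA of PDL-L2 cells was measured on Affymetrix mouse genome arrays, 1 per condition. Each deposited value is a signal intensity on a linear scale. GCOS 1.4 is named in the submitters' processing notes, while how it summarised, background-corrected or scaled the probes is not given in the sources. Groups follow the sample titles.

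The 64 control probe sets were not compared. Of all probe sets, 34958 had 1 symbol, 932 had several and 9211 had no symbol, through the platform annotation and the RefSeq table of GRCm38.p6, which held all 90 member identifiers. A gene was read by its probe set of highest mean log2 signal, and 18 members were read by a probe set that may bind several transcripts. A signal of 0 (on 3 probe sets of the vehicle array and 1 of the siCont BMP-2 array) was replaced with 0.1. Log2 ratios were taken relative to the median over probe sets past the limit. Spread was taken as a robust SD, 1.4826 times the median absolute deviation, in 20 signal bins over all probe sets other than controls. No test between conditions was possible.

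Members named in the text were those of the isoform families, the 5 largest and 5 smallest ratios, the brightest and dimmest of each complex, and those past a ratio of 2 or 0.5. Up to 2 genes of each list with the largest ratios were named. Other members were added for their roles or counts after their values were seen (such as Ndufs1, Ndufv1, Sdha, Uqcrc1, Atp5a1 and the Ndufaf genes), as were Higd1a and Gabpa. The members and lists were chosen with earlier results of these data known. The ratio step was tested on simulated data with known changes, and the counts were not. Python 3.11.15, numpy 2.4.6, pandas 2.3.3, statsmodels 0.14.6 and matplotlib 3.10.9 were used.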

Additional observations from a re-analysis of the deposited data

How the results depend on the processing

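Ratios were recomputed with no signal limit, limits at the 75th percentile and at 1000 (the latter chosen after seeing the data), ratios as deposited, arrays scaled to the 2% trimmed mean, lowess and quantile centring, signals raised to the median, a mean over probe sets, without probe sets ending in _x_at or _s_at, and with annotation symbols. Over these, 287 values of the comparisons moved by less than 1.5 times or the robust SD, which stood in for the spread between replicates, and 43 moved more. Of the named genes, 595 values held, 16 moved and 4 reversed. A change of sign smaller than this spread was not counted as a reversal. For siENG over siCont BMP-2, Cox4i1 went from -0.11 to 0.10 as deposited and Cox5a from -0.19 to 0.02. The complex IV median went from -0.09 to 0.12. The counts therefore do not show that the direction of small ratios held.

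With rhBMP-2, the members at a ratio of 2 or more numbered 3 with no limit and 0 with the 75th percentile limit, raised signals or the limit of 1000. Those at 0.32 or more (log2) numbered 4 with no limit, 1 with raised signals and 0 with either higher limit. Those at -0.32 or less (log2) numbered 3 with no limit, 1 with trimmed mean scaling, 1 with the mean over probe sets and 2 without _x_at and _s_at probe sets. Those at a ratio of 0.5 or less numbered 2 with no limit and 1 with the mean over probe sets. The assembly median was -0.23 at the limit of 1000, where Cox7a2l alone remained.

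For siENG over siCont BMP-2, the members at 0.32 or more (log2) numbered 36 as deposited and 8 at the limit of 1000. Those at -0.32 or less (log2) numbered 5 with no limit, 8 with the mean over probe sets, and 1 each as deposited, with raised signals and with either higher limit. Those at a ratio of 0.5 or less numbered 2 with no limit, 2 with the mean over probe sets, and 0 with raised signals or either higher limit. With the mean over probe sets, which counts dim probe sets equally, Atp5g1 reversed to -0.64 and Atp5g2 to -0.57, and against vehicle to -0.33 and -0.66.

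For siENG over vehicle, the members at a ratio of 2 or more numbered 1 with no limit and 1 as deposited. Those at 0.32 or more (log2) numbered 32 as deposited (41.5% of all genes) and 7 at the limit of 1000. Those at -0.32 or less (log2) numbered 4 with no limit, 5 with the mean over probe sets, 2 with trimmed mean scaling, 2 without _x_at and _s_at probe sets and 0 as deposited. Those at a ratio of 0.5 or less numbered 1 with no limit and 2 with the mean over probe sets. As deposited, the medians were 0.24 for complex I, 0.43 for complex II, 0.35 for complex III and 0.26 for complex V. The cause was not tested.

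No paired analysis was possible because each condition has 1 array. The number of arrays limits every ratio, and dim isoforms near the bacterial control range have only bounds.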
